A study of Mus musculus with 6 samples.

Results

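The genes described here make cholesterol and fatty acids, and were read in mouse embryonic stem (ES) cells with and without REST, the repressor that silences neuronal genes through RE1 elements. They are a list of 36 genes, 18 of sterol synthesis, 5 of sterol sensing, 3 of sterol transport and efflux and 10 of fatty acid synthesis, desaturation and elongation. Every array probe that carried a listed symbol was taken, by the symbol of the authors' deposited table or, for Hmgcs1, Idi1 and Lss, which have none there, by the array's target name. This gave 46 of the array's 25697 probes, for 33 of 17925 gene names. Mvk, Fdft1 and Tm7sf2 had no probe under these names. A probe counted as detected on an array when its detection p, against the negative control beads, was under 0.05, and it was tested when at least 3 of the 6 arrays detected it. This held for 37 of the 46 probes and 27 of the 33 genes, and each gene is read by its brightest tested probe unless said otherwise. Idi1, Sc5d, Srebf1, Abca1, Abcg1 and Fasn were not tested.

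The study compared 3 samples labelled control, with FloRes as their source, and 3 labelled REST KO, with FloResCre as their source. All came from E14Tg2a, an Hprt-deficient mouse ES cell line, and the series describes them as Rest-null ES cells and controls. The deposited comparison calls the control Rest flox. Every sample has its own MouseRef-8 v2 BeadArray, a bead chip of Illumina that reads each probe from many beads. The array names put control at positions A to C and REST KO at positions D to F of 1 chip, so position and genotype cannot be told apart. The share of probes an array detected ran from 42.5% to 44.9%, and 22 to 60 beads stood behind each member probe. The single Rest probe was detected on no array, so it does not check the genotype labels.

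All 10 ES cell markers (Pou5f1, Sox2 and Nanog among them) were detected on all 6 arrays. None was called (adjusted p under 0.05), yet all 10 had a lower mean in REST KO cells, with log2 differences from -0.01 for Dppa5a to -1.54 for Klf4. Sox2 had -0.81, with all REST KO arrays below all controls (limma adjusted p = 0.0714). Of 7 fibroblast markers 6, the collagen genes Col1a1, Col1a2 and Col3a1 included, were detected on no array. Of 9 extraembryonic endoderm markers 6 were detected on no array and Sox7 was called lower. Sox7 was detected on 3 control and 0 REST KO arrays, so its call is against background. Of 8 neural progenitor markers 5 were detected on no array, Sox1 and Pax6 among them. For 2 others, Insm1 and Nes, all REST KO arrays lay above all controls without a call. Insm1 had a log2 difference of 1.93 (limma adjusted p = 0.0798), and Nes was detected on 0 control and 3 REST KO arrays (limma adjusted p = 0.0504). Of 6 trophectoderm markers with a probe 3 were detected on none, while Gata3 and Krt18 were called higher.

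Cholesterol is built from acetyl-CoA through mevalonate, isoprenoid diphosphates and squalene, which is closed into lanosterol and then trimmed to cholesterol in the endoplasmic reticulum. When sterols run low there, the escort protein SCAP carries the SREBP transcription factors to the Golgi, where they are cut free and switch on most genes of both the sterol and the fatty acid pathway. INSIG proteins hold SCAP back when sterols are plentiful. Fatty acids are made from the same acetyl-CoA by acetyl-CoA carboxylase and fatty acid synthase, then lengthened by ELOVL enzymes and desaturated by SCD and FADS enzymes.

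SREBPs are known to act at promoters together with factors that bind CCAAT and GC boxes, so the promoters of 5 members are shown: the one with an SREBP core (Hmgcs1), a sterol gene (Cyp51), a sensor (Insig1), a desaturase (Fads2) and an elongase with a lower mean in REST KO cells (Elovl6). The sequences are from RefSeq (GRCm38.p6) and are the 250 bases before the annotated start of the gene, read 5′ to 3′ on its strand. Capitals mark the core letters TCACNCCAC of the SREBP element and the CCAAT box, on either strand. The promoters of Fads2 and Elovl6 hold neither. Hmgcs1 (chr13:119690101-119690350, plus strand), Cyp51 (chr5:4104698-4104947, minus strand), Insig1 (chr5:28071162-28071411, plus strand), Fads2 (chr19:10101504-10101753, minus strand) and Elovl6 (chr3:129532136-129532385, plus strand) read as follows.
Hmgcs1: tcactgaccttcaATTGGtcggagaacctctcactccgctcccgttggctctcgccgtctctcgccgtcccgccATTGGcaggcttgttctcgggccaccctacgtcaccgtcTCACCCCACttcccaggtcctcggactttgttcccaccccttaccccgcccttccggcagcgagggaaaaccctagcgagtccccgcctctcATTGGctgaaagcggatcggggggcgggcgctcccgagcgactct
Cyp51: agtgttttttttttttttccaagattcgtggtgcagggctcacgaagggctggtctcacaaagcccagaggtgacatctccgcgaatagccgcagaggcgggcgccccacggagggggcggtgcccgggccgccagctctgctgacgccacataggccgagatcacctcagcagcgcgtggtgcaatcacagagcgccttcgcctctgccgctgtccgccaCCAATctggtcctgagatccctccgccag
Insig1: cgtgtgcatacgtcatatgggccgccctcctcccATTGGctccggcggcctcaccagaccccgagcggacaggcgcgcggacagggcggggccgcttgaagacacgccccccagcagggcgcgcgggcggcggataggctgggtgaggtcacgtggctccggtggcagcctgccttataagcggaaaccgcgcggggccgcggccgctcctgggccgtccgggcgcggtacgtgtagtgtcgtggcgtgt
Fads2: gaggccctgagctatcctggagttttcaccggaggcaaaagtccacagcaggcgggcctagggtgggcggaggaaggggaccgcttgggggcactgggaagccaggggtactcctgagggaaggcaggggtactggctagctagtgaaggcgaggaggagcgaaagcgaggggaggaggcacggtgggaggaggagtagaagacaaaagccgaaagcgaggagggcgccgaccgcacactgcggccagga
Elovl6: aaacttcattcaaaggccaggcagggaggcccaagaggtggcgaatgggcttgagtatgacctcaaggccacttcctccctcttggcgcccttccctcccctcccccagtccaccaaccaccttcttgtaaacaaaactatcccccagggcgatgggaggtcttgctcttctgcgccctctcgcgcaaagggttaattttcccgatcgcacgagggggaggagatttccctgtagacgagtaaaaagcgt

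The promoter table matched 28 of the 36 members, with 37 promoters of 250 bases before to 50 bases after a start. Fdps, Fdft1, Sqle, Stard4, Abcg1, Scd1, Scd2 and Fads1 had no entry. The 9-letter SREBP core, searched on both strands, lay in the promoter of 1 member, Hmgcs1, 137 bases before the start. It lay in 1.41% of 17492 protein-coding genes with promoters in the table. A CCAAT box stood in 14 of 15 sterol synthesis genes (93.3%), 4 of 7 fatty acid genes (57.1%) and 42.3% of all protein-coding genes. The GC box GGGCGG stood in 14 of 15 sterol synthesis genes (93.3%), 3 of 7 fatty acid genes (42.9%) and 49.2% of all. The left arm of the RE1 element, TTCAGCACC, stood in none of the 28 and in 0.48% of all. These short motifs were counted separately, and a match describes letters only. Only the letters given were searched, with N for any base, so variant forms of the elements were not counted.

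No sterol or fatty acid gene passed the test between REST KO and control cells. Of 37 tested member probes 0 were called (limma, Benjamini-Hochberg adjusted p of at least 0.0932), where 1.27% of all 11388 tested probes were. An unadjusted p under 0.05 was reached by 14 of the 37 (37.8%), against 19.9% of all probes. In 10 member probes (27.0%) all REST KO arrays lay above all control arrays, and in 3 (8.11%) all lay below, against 12.1% and 13% of all probes. By the authors' deposited table, none of the 46 member probes had an adjusted p under 0.05, where 448 of its 25695 probes did. An unadjusted p under 0.05 was held by 20 of the 46, and the share over all its probes was not counted. The lowest adjusted p of a member probe in the authors' deposited table was 0.053, for Cyp51.

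Most differences were above 0 in both branches. Of 13 tested sterol synthesis genes 11 had a higher mean in REST KO cells, with a median log2 difference of 0.39. Of 9 tested fatty acid genes 7 did, with a median of 0.30. Over all 8673 tested genes 47.8% were above 0 and the median was -0.01. All 13 sterol genes were detected on all 6 arrays, so none of them entered the test through 1 genotype. Among the fatty acid genes only Fads2 was not detected on every array. Leaving it out, 6 of the 8 other fatty acid genes had a difference above 0 and their median was 0.20. Without control replicate 1 the sterol median was 0.23.

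**Figure D1:**
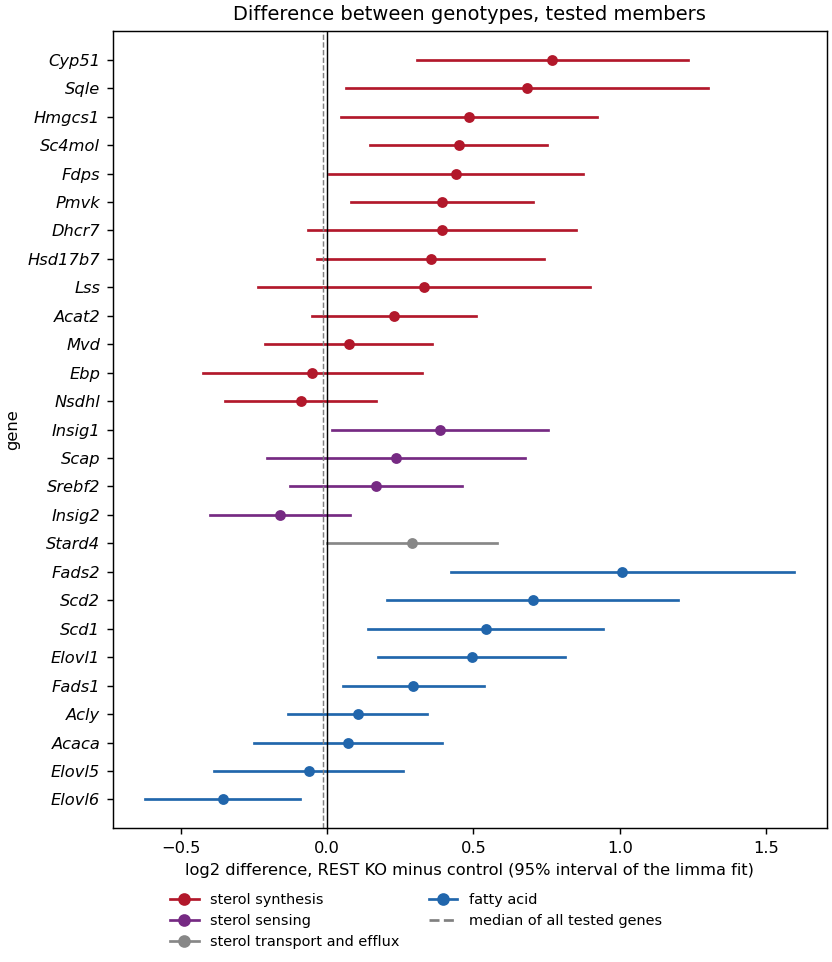
Log2 difference between REST KO and control (horizontal axis) for each of the 27 tested genes, with its 95% interval from the limma fit and colour by branch. The dashed line is the median of all tested genes (-0.01), and 22 of the 27 points lie above 0, from Elovl6 at -0.36 to Fads2 at 1.01, which was detected on 1 of 3 control arrays.

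The first steps join acetyl-CoA units and carry them to isoprenoid diphosphates. Hmgcs1, which encodes cytosolic HMG-CoA synthase, stood at 12.63, 13.36 and 12.83 (normalized log2 level) in control replicates 1 to 3 and at 13.50, 13.38 and 13.39 in REST KO replicates 1 to 3. Control replicate 2 lay just under the REST KO arrays and the other controls well below. The log2 difference was 0.49 ± 0.19 (SE, n = 3 per genotype, limma adjusted p = 0.21).

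Fdps, farnesyl diphosphate synthase, went from 11.72 ± 0.33 (log2 level, SD, n = 3) in control to 12.16 ± 0.19 in REST KO cells, a log2 difference of 0.44 ± 0.18 (limma adjusted p = 0.244). Pmvk, phosphomevalonate kinase, had a log2 difference of 0.39 ± 0.13, with all REST KO arrays above all controls (limma adjusted p = 0.167). Acat2, the cytosolic thiolase that condenses acetyl-CoA, had 0.23 ± 0.12. Mvd, mevalonate diphosphate decarboxylase, had 0.07 ± 0.12, with a 95% interval from -0.21 to 0.36. The isomerase gene Idi1 was detected on none of the control arrays and 1 REST KO array, so no fold is given.

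The second stretch makes squalene into sterols. Cyp51, which removes a methyl group from lanosterol and is the target of azole drugs in fungi, had all REST KO arrays above all controls. It stood at 8.45, 9.18 and 8.67 in control replicates 1 to 3 and at 9.47, 9.73 and 9.41 in REST KO replicates 1 to 3. Control replicate 2 lay nearest to the REST KO arrays. The level was 1.70-fold higher, with a log2 difference of 0.77 ± 0.20 (95% interval 0.31 to 1.23, limma adjusted p = 0.0996).

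Sqle, squalene epoxidase, whose step is rate-limiting after squalene, varied widely among the controls. Its brighter probe stood at 10.78, 11.81 and 10.97 in control replicates 1 to 3 and at 11.95, 12.01 and 11.64 in REST KO replicates 1 to 3. Control replicate 2 lay among the REST KO arrays. The bead standard error was at most 0.07 on the log2 scale on any array, less than the gaps between the controls. The log2 difference was 0.68 ± 0.26 (limma adjusted p = 0.213), and a dimmer probe had 0.61 ± 0.32.

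Sc4mol (now Msmo1), which oxidises sterol methyl groups, went from 9.96 ± 0.17 (log2 level, SD, n = 3) to 10.41 ± 0.14, and its arrays did not overlap. Its log2 difference was 0.45 ± 0.13 (limma adjusted p = 0.123). Dhcr7, the last reductase of one route to cholesterol, had a log2 difference of 0.39 ± 0.20, Hsd17b7, a sterol ketone reductase, 0.35 ± 0.17, and Lss, lanosterol synthase, 0.33 ± 0.24. In these 3 genes at least 1 control array lay among the REST KO arrays. Without control replicate 1 the difference of Lss was 0.07 and that of Dhcr7 was 0.18.

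Both X-linked sterol genes stayed near 0 on average. Ebp, the sterol isomerase, stood at 8.89, 8.40 and 8.97 in control replicates 1 to 3 and at 8.68, 8.76 and 8.68 in REST KO replicates 1 to 3. The REST KO arrays lay between the controls, and the log2 difference was -0.05 ± 0.16 (95% interval -0.42 to 0.32). Nsdhl, a sterol dehydrogenase, stood by its brightest probe at 7.33, 7.34 and 7.26 in control and at 7.27, 7.33 and 7.05 in REST KO replicates.

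The 4 Nsdhl probes did not point one way. Their log2 differences were -0.09 ± 0.11, 0.10 ± 0.12, -0.01 ± 0.27 and -0.35 ± 0.12, from the brightest to the dimmest. On the dimmest all REST KO arrays lay below all controls (limma adjusted p = 0.175). Sc5d, the sterol desaturase gene, was detected on no array.

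**Figure D2:**
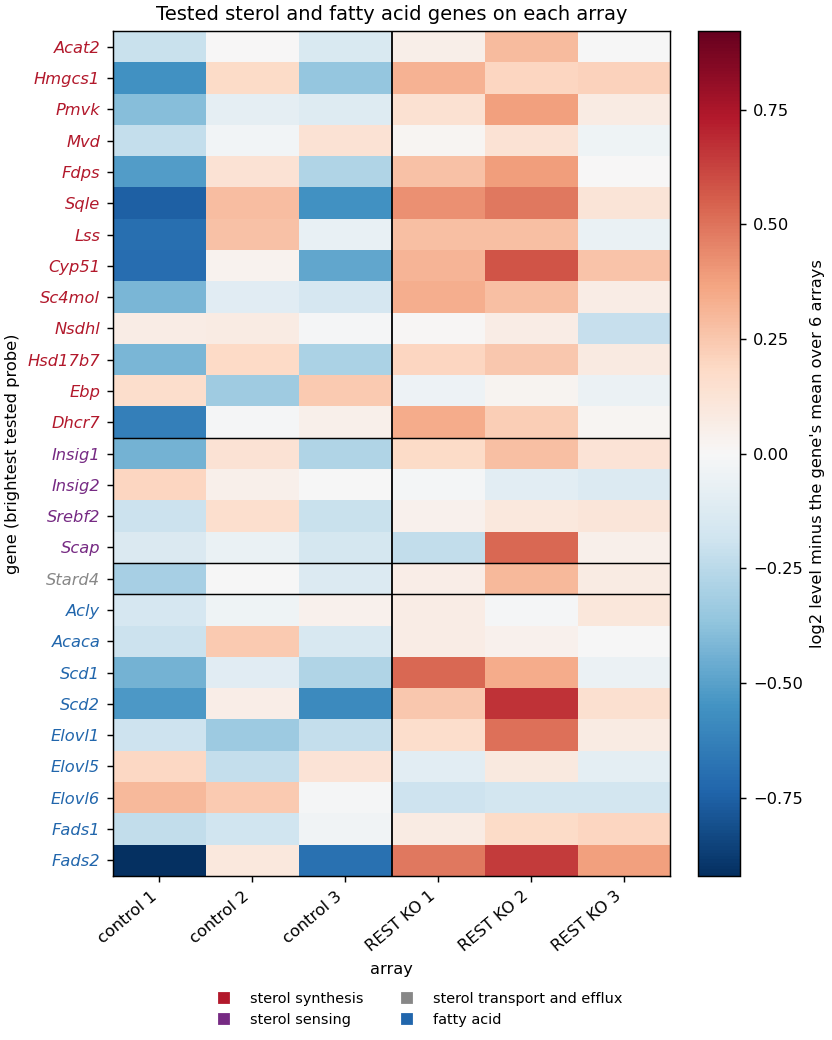
Log2 level of each tested gene (rows, grouped by branch) on each of the 6 arrays (columns), as the deviation from the gene's mean over the arrays. Control replicate 1 is lowest in 11 of the 13 sterol synthesis genes, and control replicate 2 is closer to the REST KO arrays than the other controls are in genes such as Sqle, Lss and Insig1.

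Of the 4 tested genes that sense sterols, 3 had a higher mean in REST KO cells. Insig1, itself a target of the SREBPs and a retention protein for SCAP, stood at 7.98, 8.55 and 8.14 in control replicates 1 to 3 and at 8.60, 8.70 and 8.55 in REST KO replicates 1 to 3. Control replicate 2 lay just above REST KO replicate 3 and the other controls below all REST KO arrays. The log2 difference was 0.39 ± 0.16 (limma adjusted p = 0.234), and the other tested Insig1 probes had 0.37 ± 0.18 and 0.52 ± 0.24.

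Insig2, a paralogue that also retains SCAP, stood at 8.49, 8.34 and 8.29 in control and at 8.27, 8.19 and 8.17 in REST KO replicates. All REST KO arrays lay below all controls by a small step, a log2 difference of -0.16 ± 0.10 (95% interval -0.40 to 0.08, limma adjusted p = 0.421). The other tested Insig2 probe had -0.26 ± 0.18.

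Srebf2, which encodes the SREBP that mainly drives sterol genes, stood at 9.12, 9.47 and 9.12 in control and at 9.36, 9.42 and 9.43 in REST KO replicates. Control replicate 2 was the highest of all, and the log2 difference was 0.17 ± 0.13 (95% interval -0.13 to 0.46). Scap had 0.24 ± 0.19, with REST KO arrays on both sides of the controls, and 0.03 without REST KO replicate 2. Srebf1, which encodes the SREBP of fatty acid genes, was near background: its brighter probe stood at 5.48, 6.06 and 5.49 in control and at 5.24, 5.67 and 5.64 in REST KO replicates, and only 1 control array detected it. Its other probe was detected on none.

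Stard4, a carrier of cholesterol between membranes, went from 7.72 ± 0.15 (log2 level, SD, n = 3) to 8.01 ± 0.13, with no overlap between genotypes and a log2 difference of 0.29 ± 0.12 (limma adjusted p = 0.253). The efflux transporter genes Abca1 and Abcg1, which are induced by oxysterols through LXR receptors in many cells, were detected on no array.

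Acly, which makes cytosolic acetyl-CoA from citrate, had a log2 difference of 0.11 ± 0.10 and Acaca, acetyl-CoA carboxylase, 0.07 ± 0.14, with 95% intervals from -0.13 to 0.34 and from -0.25 to 0.39. Fasn, fatty acid synthase, was detected on no array by its single probe, at 5.47, 5.50 and 5.24 in control and at 5.17, 5.46 and 5.51 in REST KO replicates. Those levels are background, so the array gives no reading of Fasn.

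All 4 fatty acid desaturase genes of the list had a higher mean in REST KO cells. Other Scd genes with a probe, outside the list, were detected on no array. Fads2, which starts the synthesis of polyunsaturated fatty acids, stood at 5.42, 6.43 and 5.65 in control replicates 1 to 3 and at 6.82, 6.98 and 6.72 in REST KO replicates 1 to 3. Only control replicate 2 detected it among the controls, so its difference is partly against background. The log2 difference was 1.01 ± 0.25 (limma adjusted p = 0.0932), 0.69 with an offset of 50 and 0.52 with no background correction. Its place among the members changed with that setting, since Cyp51 had 0.72 and 0.66 there.

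Scd2, a stearoyl-CoA desaturase that makes monounsaturated fatty acids, stood at 7.60, 8.19 and 7.54 in control and at 8.38, 8.79 and 8.27 in REST KO replicates. All REST KO arrays lay above control replicate 2, the highest control, and the log2 difference was 0.70 ± 0.21 (limma adjusted p = 0.135). Its paralogue Scd1 stood at 6.78, 7.12 and 6.94 in control and at 7.75, 7.56 and 7.16 in REST KO replicates. REST KO replicate 3 was barely above the controls, and the log2 difference was 0.54 ± 0.17 (limma adjusted p = 0.148). Fads1, the next desaturase of the polyunsaturated route, had 0.30 ± 0.10 with no overlap between genotypes.

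The elongases differed in sign. Elovl6, which lengthens palmitate, stood at 12.07, 12.01 and 11.76 in control and at 11.58, 11.60 and 11.60 in REST KO replicates. The REST KO arrays agreed closely and lay below all controls, a log2 difference of -0.36 ± 0.11 (95% interval -0.62 to -0.09, limma adjusted p = 0.151). Elovl1, which elongates very long chains, stood by its brightest probe at 8.41, 8.26 and 8.37 in control and at 8.76, 9.10 and 8.67 in REST KO replicates.

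The REST KO arrays of that probe lay above the controls, with a log2 difference of 0.49 ± 0.14 (limma adjusted p = 0.116). The 3 dimmer Elovl1 probes had 0.12 ± 0.12, 0.23 ± 0.19 and 0.09 ± 0.25, with overlapping arrays. Elovl5, an elongase of polyunsaturated chains, stood at 12.35, 11.93 and 12.28 in control and at 12.06, 12.25 and 12.06 in REST KO replicates. Its genotypes overlapped, with a log2 difference of -0.06 ± 0.14 (95% interval -0.39 to 0.26).

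**Figure D3:**
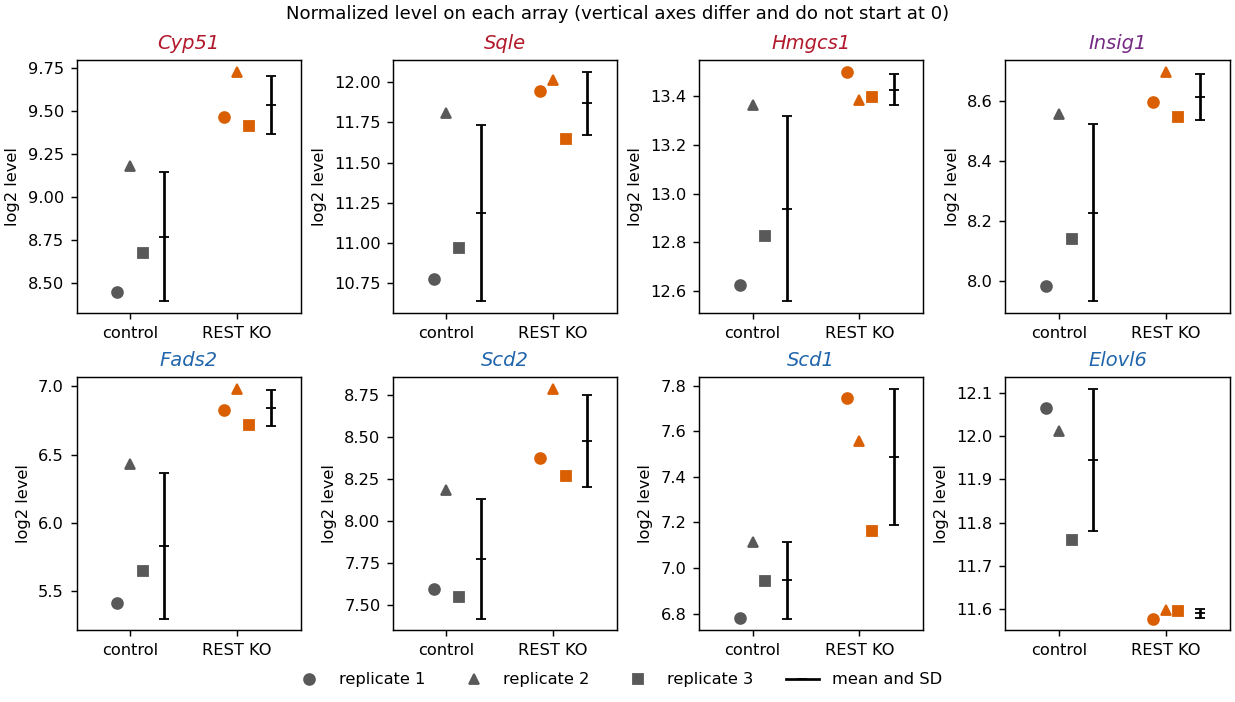
Normalized log2 level of 8 genes on each array (points, with a symbol per replicate) and the mean with SD of each genotype (n = 3). Control replicate 2 (triangle) is the highest control in all of these genes except Elovl6, where control replicate 1 is higher, and Elovl6 is the one gene shown that is lower on the REST KO arrays.

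Sterol genes varied together across the arrays. Over the 6 arrays the median Pearson correlation was 0.80 among 78 pairs of sterol synthesis genes, 0.29 among 36 pairs of fatty acid genes and 0.57 between genes of the 2 branches. These describe shared ups and downs over 6 arrays that differ in genotype, and no test was made. No value over pairs of all tested genes stands beside them. Against the mean of the sterol synthesis genes other than itself, Fdps correlated at 0.99, Insig1 at 0.96 and Stard4 at 0.95. The fatty acid genes Fads2 (0.96), Scd2 (0.92) and Scd1 (0.91) came near these values. Values below 0 were found for Insig2 (-0.79), Elovl6 (-0.73), Ebp (-0.54), Elovl5 (-0.53) and Nsdhl (-0.11).

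The control arrays did not agree on these genes. Control replicate 1 was the lowest of all 6 arrays in 11 of 13 sterol synthesis genes (84.6%), where it was lowest in 22.9% of all tested genes. That contrast also holds the difference between genotypes. Among the controls alone it was lowest in 11 of the 13 (84.6%), against 31.6% of all tested genes. Control replicate 2 was the highest control in 10 of the 13 (76.9%, against 42.8% of all tested genes). It reached at least the lowest REST KO array in 7 (53.8%, against 72% of all tested genes). Averaged over the 13 genes the level was 9.01, 9.46 and 9.26 in control replicates 1 to 3 and 9.62, 9.69 and 9.46 in REST KO replicates 1 to 3. Control replicate 2 thus stood level with REST KO replicate 3. Over the 9 fatty acid genes the means were 9.79, 10.00 and 9.83 in control and 10.18, 10.28 and 10.09 in REST KO replicates, without overlap.

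As a sum, markers of the primed, epiblast-like state were higher on control replicate 2 and the REST KO arrays than on the other controls. The summed raw intensity of 6 such markers was 8666 for control replicate 1, 9709 for control replicate 3, 23826 for control replicate 2 and from 19697 to 25113 on the REST KO arrays. Dnmt3b made up from 82.5% to 87.6% of that sum, and the other 5 summed to 1077 and 1298 on control replicates 1 and 3, 3970 on control replicate 2 and from 3263 to 4391 on the REST KO arrays. Of the 6, Krt18 and Wnt8a were called higher and 4 were detected on all arrays. The single markers differed in pattern. Krt18, which is also among the trophectoderm markers, stood at 6.57, 7.03 and 7.48 in control and from 8.41 to 8.71 in REST KO replicates. Wnt8a stood at 5.44, 6.69 and 6.04 in control and from 7.95 to 8.70 in REST KO replicates. Otx2 on control replicate 2 (11.21) lay above all REST KO arrays. The summed raw intensity of the 10 ES cell markers was 115259 and 114443 on control replicates 1 and 3. On control replicate 2 it was 82594, and on the REST KO arrays it ran from 78014 to 91581. Dppa5a made up from 51.3% to 70.9% of it, and the other 9 summed to 56143 and 54003 on control replicates 1 and 3, 26635 on control replicate 2 and from 22679 to 34712 on the REST KO arrays. For the 8 neural progenitor markers it ran from 1078 to 1339 in control and from 1955 to 2344 in REST KO cells, and without Insm1 from 732 to 823 and from 817 to 823. Their part in the sterol and fatty acid differences was not tested. In such bulk RNA, fewer cells of a type and less RNA per cell cannot be told apart.

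**Figure D4:**
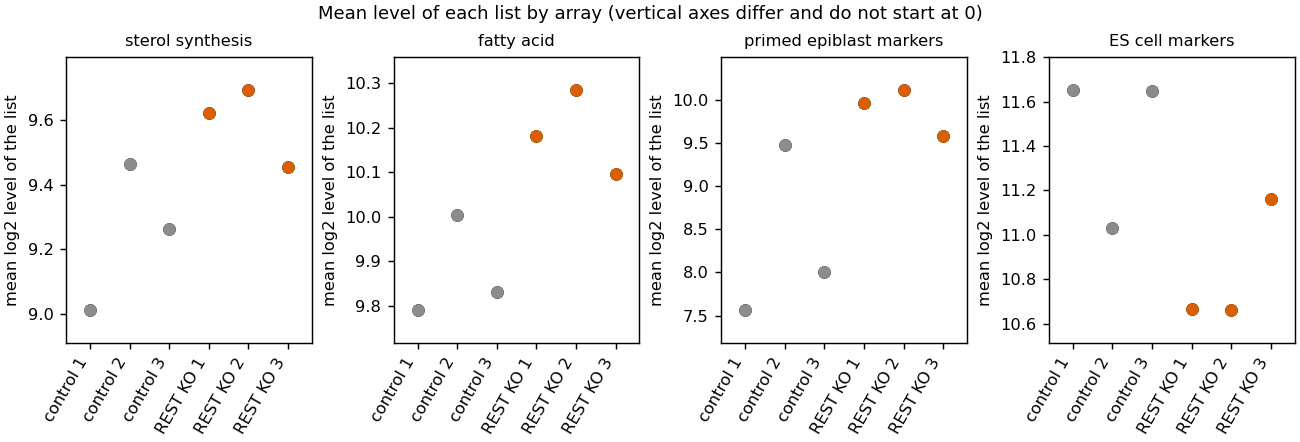
Mean log2 level of the 13 sterol synthesis genes, the 9 fatty acid genes, 6 primed epiblast markers and 10 ES cell markers on each array, with control in grey and REST KO in orange. Control replicate 2 lies toward the REST KO arrays in each panel, and in the sterol panel it reaches the lowest of them (9.46 in both).

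What is called depends on that array. Without control replicate 2 limma called 12 of the 37 member probes (32.4%), all higher, against 14.6% of all tested probes. They were of Hmgcs1, Fdps, Sqle, Cyp51, Sc4mol, Hsd17b7, Insig1, Scd2 and Fads2, with both Sqle and 3 Insig1 probes among them. In that fit Sqle differed by 0.99 ± 0.14 and Cyp51 by 0.98 ± 0.14 on the log2 scale (limma adjusted p = 0.0131 and 0.0127). For Fads2 neither remaining control array detected the probe, so its call there is against background and no difference is given. With array weights 11 member probes were called (29.7%), all higher, against 12.2% of all. Without any other single array 0 member probes were called. Of all tested probes, 2.19% were called without control replicate 3. Without control replicate 1, or without any 1 REST KO array, 0 of all tested probes were called. All 6 arrays remain the main comparison.

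**Figure D5:**
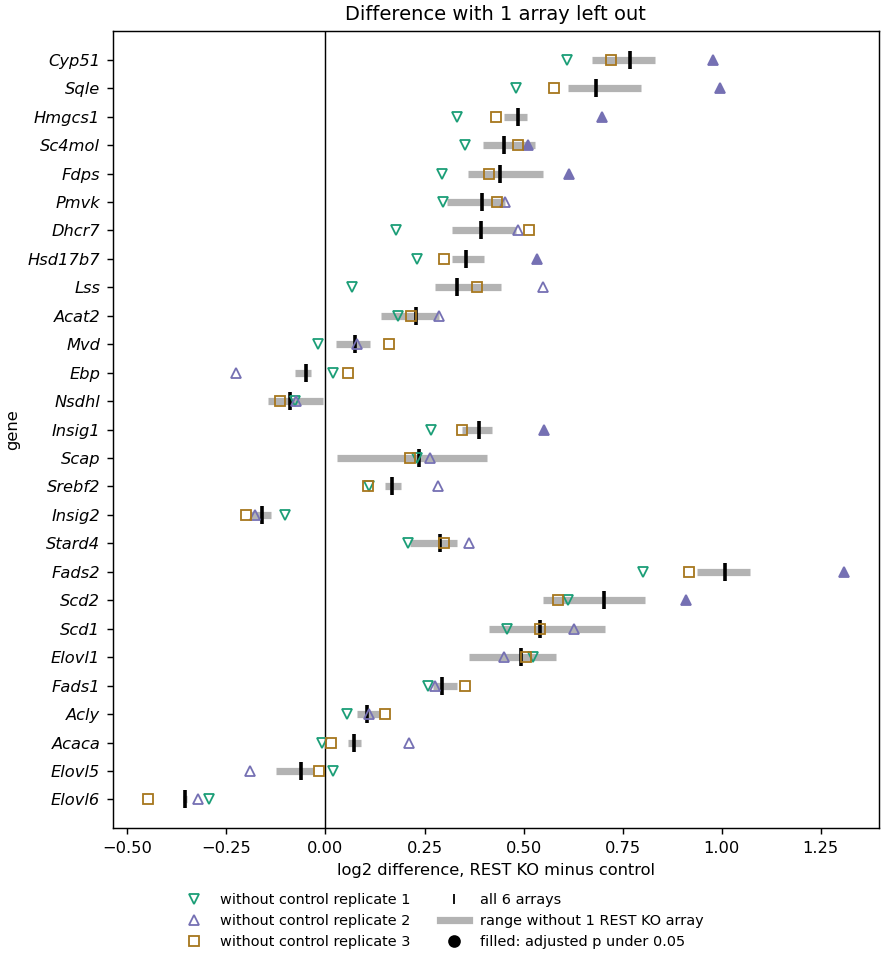
Log2 difference of each tested gene with all 6 arrays (black bar), without each control array (symbols, filled where the adjusted p is under 0.05) and the range over leaving out each REST KO array (grey). Filled symbols occur only without control replicate 2, in 9 genes, and the smallest sterol values mostly come from leaving out control replicate 1.

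Of a separate list of 17 sterol pathway genes 9 were tested, and limma called 0 of these. An unadjusted p under 0.05 was reached by 3 (33.3%, against 20.4% of all tested genes). Of the 9 differences 5 were above 0 (55.6%, against 47.8% of all tested genes) and the median was 0.0021. The 9 ran from the ER lipid raft gene Erlin1 (log2 difference -0.41 ± 0.14, limma adjusted p = 0.167) to Soat1, which esterifies cholesterol (0.60 ± 0.21, adjusted p = 0.187). Soat1 was at 7.33, 8.17 and 7.82 in control and at 8.38, 8.20 and 8.54 in REST KO replicates, so control replicate 2 came close to the REST KO arrays here too.

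Of 24 other fatty acid pathway genes 16 were tested and 1 was called, where 97 of all 8673 tested genes were called higher and 22 lower. Of the 16 differences 10 were above 0 (62.5%, against 47.8% of all tested genes) and the median was 0.13. Acsl3, which activates long-chain fatty acids for lipid synthesis, rose by 0.78 ± 0.12 on the log2 scale (limma adjusted p = 0.0384). It stood at 8.98, 9.26 and 9.15 in control and at 9.99, 9.98 and 9.75 in REST KO replicates, and the genotypes were clearly apart. Its call was kept without control replicate 2 (adjusted p = 0.0138) and lost without any other single array, at adjusted p from 0.0582 to 0.199. Ptpla (now Hacd1), a dehydratase of fatty acid elongation, had 0.80 ± 0.21 (adjusted p = 0.102). Acss2, which makes acetyl-CoA from acetate, had the lowest value, -0.81 ± 0.22 (adjusted p = 0.108), at 9.60, 8.72 and 9.33 in control and at 8.31, 8.38 and 8.53 in REST KO replicates.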

How the data were processed

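RNA of 6 E14Tg2a samples, 3 labelled control and 3 labelled REST KO, was read on Illumina MouseRef-8 v2 arrays. The authors deposited the mean bead intensity of each probe and array from BeadStudio 3.3.7 without normalization, the standard deviation of its beads (also an intensity) and the count of beads behind it, per the file headers. The deposited detection score goes up with signal although headed a p-value, so the detection p used is 1 minus that score. Deposited log2 values of the authors differed from quantile normalized log2 intensities by at most 5e-09. Their comparison table holds log2 fold changes, p-values and adjusted p-values from limma, per the file headers, and is quoted only where named. For its model options and genome build: not given in the sources used here.

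Here intensities were background corrected with a normal-exponential model based on the detection p, given an offset of 16 and quantile normalized on the log2 scale (neqc, limma 3.58.1, R 4.3.3). The offset shrinks differences of dim probes. Testing required detection (p under 0.05) by 3 or more arrays and left 11388 of 25697 probes and 8673 gene names. Genotype was the only term in limma (lmFit, then eBayes). P-values were two-sided, adjusted by Benjamini-Hochberg across 11388 probes and called at 0.05. Standard errors and 95% intervals come from that fit, and its code was tested on simulated data. Each gene is represented by its brightest tested probe. Members and lists were chosen with earlier results of these data known. All members with a probe are named. Values on each array are given for the 6 largest differences in each direction (5 were below 0), for Srebf1, Srebf2, Insig1 and Fasn, and for Hmgcs1, which was added after its values were seen. Of the other pathway genes, those called and the largest difference in each direction are named. The RE1 half-site search was also added later. Whether replicates are separate cultures is not in the labels, and p-values then measure only a spread that may be technical. Replicate numbers were not taken to pair the samples. Deviations of same-numbered arrays from their genotype means correlated at -0.27, 0.34 and 0.36. Those of differently numbered arrays correlated at values from -0.55 to 0.45. Arrays were compared under other offsets, normalizations, filters, eBayes options, array weights and a replicate block, and with each array left out.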

Additional observations from a re-analysis of the deposited data

How the results depend on the processing

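All settings except those for pathway genes outside the members were planned. With all 6 arrays, 145 probes of the array passed (120 higher, 25 lower). The count was 274 with an offset of 50 (219 higher, 55 lower), 332 with no background correction and also with the series matrix values (259 and 73), 364 with an intensity trend and robust eBayes, 50 with no filter, 69 with probes detected on all 6 arrays, 1386 with array weights (730 and 656) and 0 with the replicate block (2376 had an unadjusted p under 0.05). With 1 array left out it ran from 0 to 1668. The count of member probes called was 0 in limma with all 6 arrays, 11 with array weights, and from 0 to 12 with 1 array left out, the 12 being without control replicate 2. Where it was 0 with 1 array left out, 5 to 11 of the 37 member probes had an unadjusted p under 0.05. Of all 11388 tested probes 1445 to 2085 did in those fits. The replicate block called no member probe (19 had an unadjusted p under 0.05). The median difference of the fatty acid genes was 0.20 both with no filter and with probes detected on all 6 arrays, against 0.30 in the main setting. Both medians kept their sign in every setting run.

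Among 404 values of the 27 tested members under other settings, 380 kept their sign and side of the threshold, 19 passed it and 5 changed sign. The sign changes all came from leaving out 1 control array: Mvd ran from -0.018 to 0.16, Ebp from -0.23 to 0.056, Acaca from -0.0090 to 0.21 and Elovl5 from -0.19 to 0.018. The call of Acsl3 was lost with no filter (adjusted p = 0.0554) and with the replicate block (adjusted p = 0.088), and without every array but control replicate 2. Causes were not tested. The number of arrays limits the precision of every value. No difference is given for any single untested gene, and that of Fads2 is partly against background.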
